A study of Rattus norvegicus with 10 samples.

Results

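The genes described here were 9 complement components and regulators, *C1qa*, *C1qb*, *C1qc*, *C1s*, *C2*, *C3*, *C4a*, *Cfb* and *Cfi*, chosen by symbol from the 32545 genes of the deposited table. The 9 symbols matched 11 rows, because *C2* and *C4a* were each listed 2 times under different Ensembl identifiers, and 10 of the 11 rows passed the filter on low values. RNA-Seq had been performed to examine sex differences, with 1 library of frozen kidney cortex from each of 5 males and 5 females of the PCK strain (PCK/CrljCrl-Pkhd1pck/Crl). All 10 rats carried the *Pkhd1* mutation that makes the strain a model of autosomal recessive polycystic kidney disease (ARPKD), and no rat without it was in the series. The series description gave an age of 12 to 14 weeks and the methods of the study 10 to 12 weeks, and the rats came from 2 litters, which the labels did not assign to libraries. The kidneys had been flushed with phosphate-buffered saline before sampling.

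Complement is a cascade of plasma proteins that tags damaged cells and microbes, recruits leukocytes and can perforate membranes. In the classical pathway, the C1q recognition molecule activates the proteases C1r and C1s, which cleave C4 and C2 into a convertase for C3. The alternative pathway amplifies this step with factor B, while factor I inactivates the deposited C3 and C4 fragments. The liver makes most circulating complement, macrophages are a main source of C1q, and injured or cystic tubules are known to transcribe *C3*.

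Reads on genes numbered 13912569 to 20285911 per library. Values were FPKM, fragments per kilobase of gene length after a scaling between libraries. On a gene of 1 kb, 1 read was worth 0.0486 to 0.0710 FPKM. The values had the same median-ratio factor, 1.008, in every library, so the alternative of median-ratio scaling hardly changed them. Markers of cortical nephron segments were present in every library (*Slc34a1* 1262 ± 292 FPKM in males and 1253 ± 364 in females, *Umod* 985 ± 204 and 1265 ± 273, mean ± SD, n = 5 each), and *Alb*, the defining hepatocyte transcript, had at most 2 reads in any library. Over the 17631 genes tested, 109 were higher and 123 lower in females at an adjusted p of at most 0.05 and a fold of at least 2 (limma with Benjamini-Hochberg adjustment), which is 1.32% of the genes. Mitochondrial genes took 14.3% to 26.8% of reads, and female 2 had the highest share.

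None of the 10 complement rows tested passed the adjusted threshold for a sex difference, against 2.4% of all genes tested in either direction. The FPKM ranges of males and females overlapped in all 10, where 2.6% of all genes tested had separate ranges, lower in females. At an unadjusted p under 0.05, 2 of the 10 rows were lower in females with limma, where 8.07% of all genes tested were. The count was 5 without female 1. It was 3 each without female 2, without male 2, without male 3 and with a replicate block. In every other alternative, limma-voom on read numbers among them, it was 2. All 10 log2 fold changes, females over males, were below 0, with a median of -0.52. Of all genes tested, 51.2% lay below 0 and their median was -0.01. That share was 63.9% with scaling by total reads and 64.1% with limma-voom, where all 10 rows were also below 0. The largest log2 fold change was that of *C3* (-1.29), with a mean of 18.3 FPKM in males and 7.36 FPKM in females. Female 4 was the lowest of the 10 libraries in every row, and without it 9 of the 10 rows lay below 0 with a median of -0.31. Without male 5 all 10 lay below 0 with a median of -0.33. In bulk tissue, fewer cells of a type and less RNA per cell cannot be told apart.

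**Figure D1:**
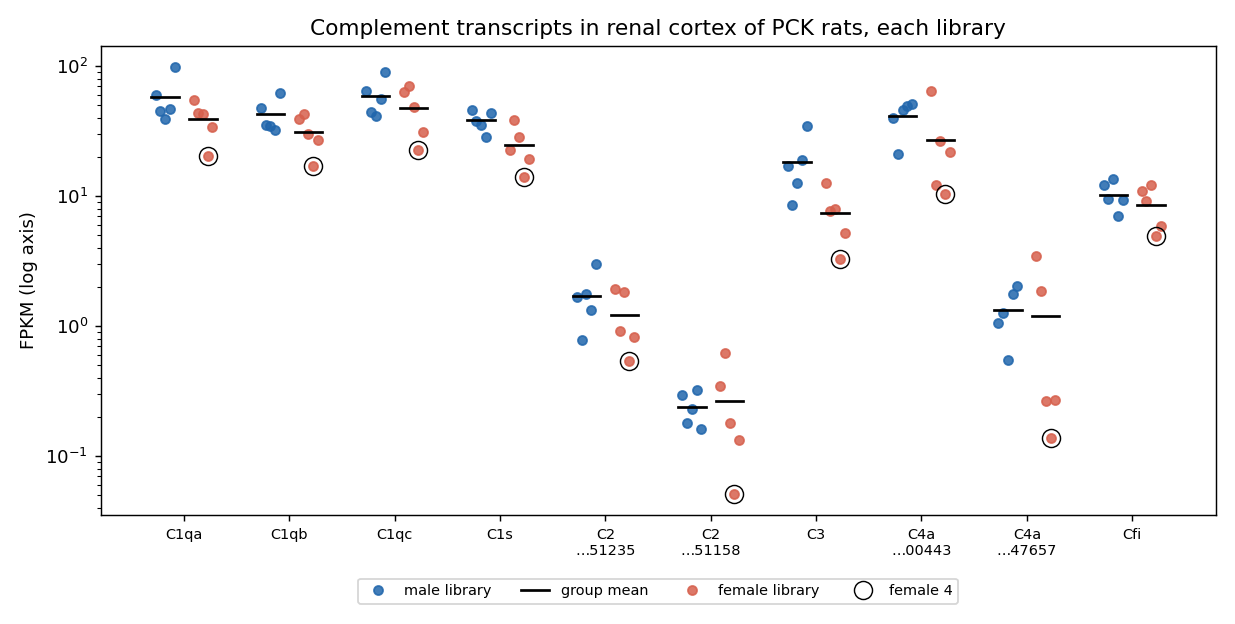
FPKM on a log axis of the 10 tested rows in each library, with males in blue, females in red, a bar at each group mean and a ring around female 4. The ranges of the sexes overlapped in every row (2.6% of all genes tested had separate ranges, lower in females), and the ringed library was the lowest one in each.

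Sequences upstream of the members were taken from RefSeq on build GRCr8, which held a window of 250 bases before and 50 bases after the start for 5 of the 9 genes (*C1qa*, *C1qb*, *C3*, *C4a* and *Cfi*). Windows are printed for *C1qa* and *C1qb*, the C1q genes that had one, and for *C3*, the gene with the largest log2 fold change. They lie at chr5:154419884-154420183, chr5:154407778-154408077 and chr9:2201290-2201589, all on the minus strand, and are written 5′ to 3′. Capitals mark matches to GGAAGT, the core bound by PU.1 and other ETS factors, to TTGCNNAA for C/EBP factors and to TTCNNNGAA for STAT factors, searched on both strands with no overlap between matches.
C1qa: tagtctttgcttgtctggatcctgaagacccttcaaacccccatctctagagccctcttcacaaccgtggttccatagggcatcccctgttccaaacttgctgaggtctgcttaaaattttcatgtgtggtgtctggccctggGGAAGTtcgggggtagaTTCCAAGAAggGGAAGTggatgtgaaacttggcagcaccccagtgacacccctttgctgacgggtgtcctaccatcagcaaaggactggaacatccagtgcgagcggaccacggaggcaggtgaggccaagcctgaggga
C1qb: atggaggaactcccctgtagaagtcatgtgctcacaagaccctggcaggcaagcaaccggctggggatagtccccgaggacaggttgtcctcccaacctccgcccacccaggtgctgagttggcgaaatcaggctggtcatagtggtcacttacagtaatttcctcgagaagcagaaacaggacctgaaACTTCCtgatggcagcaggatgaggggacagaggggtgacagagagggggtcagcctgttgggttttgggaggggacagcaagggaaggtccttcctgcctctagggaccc
C3: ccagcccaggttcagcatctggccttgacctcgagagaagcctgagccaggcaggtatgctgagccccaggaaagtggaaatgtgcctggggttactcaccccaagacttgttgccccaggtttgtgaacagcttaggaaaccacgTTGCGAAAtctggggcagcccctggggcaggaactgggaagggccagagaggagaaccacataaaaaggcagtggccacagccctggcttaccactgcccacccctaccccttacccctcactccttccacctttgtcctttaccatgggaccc

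The ETS core occurred 2 times in the *C1qa* window, starting 107 and 79 bases before the start, and 1 time in the *C1qb* window on the other strand, 61 bases before it. The STAT motif in *C1qa* lay between the ETS cores, 90 bases before the start. The window of *C3* held neither, and its C/EBP match lay 104 bases before the start. Of all 33469 promoter windows of this length, 22.6% held the ETS core, 10.6% the C/EBP motif and 8.87% the STAT motif. The E-box CACGTG of USF factors, held by 6.42% of windows, occurred in that of *C4a* alone among the 5, and the window of *Cfi* matched none of these motifs. PU.1 is known as a macrophage lineage factor and C/EBP factors as regulators of acute phase genes, and a match is only a description of the letters. Of the factors' own transcripts, *Cebpb* had 56.2 ± 16.4 FPKM in males and 30.5 ± 12.2 in females (limma adjusted p = 0.126, and 0.0419 without female 2), and *Stat3* 50.4 ± 3.69 and 48.1 ± 8.33 (adjusted p = 0.798).

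The C1q genes encode the A, B and C chains of the recognition molecule and lie side by side on the minus strand of chromosome 5 in the order *C1qb*, *C1qc*, *C1qa*, separated by 3001 and 2857 bases on Rnor_6.0. *C1qa* (ENSRNOG00000012807, chr5:155261250-155264143) had 59.9, 45.2, 39.0, 46.4 and 97.9 FPKM in males 1 to 5 and 54.4, 43.7, 42.5, 20.3 and 33.9 FPKM in females 1 to 5. Male 5 stood above all others and females 4 and 5 below all males, with the other 7 libraries intermixed. The means were 57.7 ± 23.7 in males and 39.0 ± 12.7 in females (log2 fold change -0.56, SE 0.29, limma adjusted p = 0.394), and the exact two-sided permutation test on FPKM gave p = 0.151. The log2 fold change was -0.34 without male 5 and -0.34 without female 4, and the difference in means, females minus males, moved from -18.7 to -8.66 FPKM without male 5.

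*C1qb* (ENSRNOG00000012749, chr5:155246447-155252003) had 47.7, 35.4, 34.9, 32.3 and 62.4 FPKM in the males and 39.4, 42.5, 30.04, 16.9 and 26.9 FPKM in the females. Males 5 and 1 were the highest, and 3 females fell below the lowest male. The means were 42.6 ± 12.6 and 31.1 ± 10.2 (log2 fold change -0.47, SE 0.26, adjusted p = 0.412, exact permutation p = 0.159). Without female 4 the log2 fold change was -0.27, and the difference in means went from -11.4 to -6.45 FPKM without male 5.

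*C1qc* (ENSRNOG00000012804, chr5:155255005-155258392) had 64.3, 44.5, 41.4, 56.2 and 89.9 FPKM in the males and 63.2, 70.7, 48.7, 22.5 and 31.2 FPKM in the females. Female 2 was second only to male 5 here, while females 4 and 5 were the lowest. The means were 59.3 ± 19.4 and 47.2 ± 20.47 (log2 fold change -0.39, SE 0.32, adjusted p = 0.613, exact permutation p = 0.373). Without female 4 the log2 fold change was -0.16 and without male 5 -0.23, and the difference in means, females minus males, moved from -12.0 FPKM to -5.83 without female 4, -4.35 without male 5 and -7.995 without female 5.

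The chains kept a narrow proportion to each other while their level moved 3.69-fold to 4.81-fold between the lowest and the highest library. The ratio of *C1qa* to *C1qb* lay between 1.03 and 1.57 and that of *C1qc* to *C1qb* between 1.16 and 1.74 in all 10 libraries, and neither ratio differed between the sexes beyond its spread (exact permutation p = 0.508 and 0.556). Summed over the 3 chains, C1q stood at 159 ± 55.0 FPKM in males and 117 ± 42.2 in females (n = 5 each, exact permutation p = 0.214).

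*C1s*, which encodes the protease that cleaves C4 and C2 (ENSRNOG00000011971, chr4:157143592-157155609), had 46.0, 38.1, 35.1, 28.2 and 43.6 FPKM in the males and 22.8, 38.4, 28.7, 14.0 and 19.3 FPKM in the females. Females 1, 4 and 5 lay below every male, whereas female 2 was above 3 of the males. The means were 38.2 ± 7.04 and 24.6 ± 9.37 FPKM, a log2 fold change of -0.69 (SE 0.24, adjusted p = 0.185, unadjusted p = 0.0150). The exact permutation test on FPKM gave p = 0.0556. Without female 2 it gave p = 0.0238 and the adjusted limma p was 0.0511, and without male 4 the exact p was 0.0397. The log2 fold change was -0.51 without female 4.

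Its partner protease *C1r*, which lies 6762 bases away on the opposite strand, had 53.1 ± 7.42 FPKM in males and 35.8 ± 16.3 in females (log2 fold change -0.67, SE 0.26, adjusted p = 0.231). Without female 2 its log2 fold change was -0.90 and passed (adjusted p = 0.0346). The ratio of *C1r* to *C1s* was 1.40 ± 0.139 in males and 1.43 ± 0.108 in females (exact permutation p = 0.881), from 1.22 to 1.61 over the libraries. Their sum was 91.3 ± 14.0 and 60.4 ± 25.6 FPKM (exact permutation p = 0.0556).

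C4 and C2 supply the subunits of the classical C3 convertase, and their rows carried limits of annotation. The larger *C4a* row (ENSRNOG00000000443, chr20:4302347-4508214) spanned 16 other features, 7 of them on the same strand, among them its near-identical paralog *C4b* at chr20:4302344-4316715, so the division of reads between the paralogs is uncertain. It had 39.8, 21.0, 46.2, 49.7 and 50.8 FPKM in the males and 64.7, 12.1, 26.6, 10.5 and 21.7 FPKM in the females. Female 1 was the highest library of all 10, and the other 4 females lay below all males but male 2. The means were 41.5 ± 12.2 and 27.1 ± 22.1 (log2 fold change -0.87, SE 0.45, adjusted p = 0.388, exact permutation p = 0.246). Female 1 decided this value, since without it the exact permutation p was 0.0317 and the log2 fold change -1.26 (adjusted p = 0.0945).

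The smaller *C4a* row (ENSRNOG00000047657, chr20:2651599-2678141) lay at a separate place on the chromosome and had 1.06, 1.26, 0.549, 1.77 and 2.05 FPKM in the males and 3.45, 1.87, 0.268, 0.138 and 0.272 FPKM in the females. Females 1 and 2 lay at the upper end and the other 3 females below every male, which gave this row the widest spread of the members (24.9-fold over the libraries). The log2 fold change was -0.83 (SE 0.71, adjusted p = 0.637), and the means, 1.34 ± 0.592 and 1.20 ± 1.45 FPKM, gave an exact permutation p of 0.865. Its log2 fold change was -1.40 without female 1, -0.42 without female 4 and -0.28 at pseudocount 1. *C4b* had 14.7 ± 6.20 FPKM in males and 6.64 ± 4.89 in females (log2 fold change -1.43, SE 0.57, adjusted p = 0.244, and -0.93 without female 4). The FPKM of both *C4a* rows and *C4b* summed to 57.5 ± 16.4 and 35.0 ± 27.7 (exact permutation p = 0.167), without any reads that counting may have dropped as shared between them.

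*C2* was low. Its main row (ENSRNOG00000051235, chr20:4542340-4561152) had 1.67, 0.785, 1.76, 1.32 and 3.02 FPKM in the males and 1.92, 0.927, 1.84, 0.543 and 0.820 FPKM in the females, from 25 to 118 reads per library. Male 2 was the second lowest and females 1 and 3 stood next to male 5, so the sexes were mixed (1.71 ± 0.827 and 1.21 ± 0.630, log2 fold change -0.49, SE 0.39, adjusted p = 0.604, exact permutation p = 0.325). Leaving out a library gave log2 fold changes as small as -0.26 (male 5) and -0.27 (female 4), the value at pseudocount 1 was -0.29, and the difference in means went from -0.501 to -0.173 FPKM without male 5. The second row (ENSRNOG00000051158, chr20:4536203-4542947) rested on 3 to 29 reads, with between 0.162 and 0.325 FPKM in the males (median 0.232) and 0.0516 to 0.626 in females (median 0.180). Its log2 fold change was -0.07 (SE 0.41, adjusted p = 0.960) with a mean 0.0282 FPKM higher in females (0.239 ± 0.0707 in males, 0.267 ± 0.227 in females), and its direction turned with the pseudocount and with quantile normalization.

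*Cfb*, which encodes factor B (ENSRNOG00000000419, chr20:4536263-4561062), was listed at 0 in all 10 libraries. The *C2* rows on the same strand covered 75.5% and 27.0% of its span, and together all of it. Over the table, 28.1% of the 324 protein-coding genes with at least 99% of their span covered by others on the same strand had no read in any library, against 17.8% of the other 21969. Whether reads of *Cfb* were lost to the overlap or were absent from the tissue was not tested, and no level of *Cfb* is given.

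*C3*, the hub on which all pathways converge (ENSRNOG00000046834, chr9:9721105-9747167), had 17.1, 8.59, 12.5, 19.1 and 34.4 FPKM in males 1 to 5 and 12.7, 7.68, 7.996, 3.27 and 5.17 FPKM in females 1 to 5. Above every female lay 3 of the males, and below every male 4 of the females, while female 1 was above males 2 and 3. The means were 18.3 ± 9.87 and 7.36 ± 3.55 FPKM, a 2.49-fold higher mean in males. The exact two-sided permutation test on FPKM gave p = 0.0238 for this gene alone, without adjustment for the other member rows. Across all genes the log2 fold change was -1.29 (SE 0.40, unadjusted p = 0.00791), which did not pass the adjustment (limma adjusted p = 0.134, 0.0839 to 0.273 over the 20 alternatives). *C3* and *C1s* were the 2 of 10 rows with an unadjusted p under 0.05 (8.07% of all genes tested), and 2.4% of all genes passed the adjusted threshold in either direction.

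The exact p for *C3* was 0.0714 without female 4, 0.0714 without female 5, 0.0635 without female 2 and 0.0556 without female 3, and the difference in means, females minus males, was -10.98 FPKM with all libraries and -6.96 FPKM without male 5 (p = 0.0476, exact permutation test). The log2 fold change without female 4 was -1.04 (adjusted p = 0.250). The direction was the same in each of the 20 alternatives. Of these, the filters, the fit without a trend and the replicate block cannot change the log2 fold change itself. Median-ratio scaling left it at -1.29.

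*Cfi*, which encodes factor I (ENSRNOG00000053400, chr2:235264219-235305781), had 12.1, 9.52, 13.5, 6.99 and 9.29 FPKM in the males and 10.9, 9.24, 12.1, 4.97 and 5.89 FPKM in the females. Females 4 and 5 were the lowest and the other 8 libraries were mixed. The means were 10.3 ± 2.56 and 8.62 ± 3.10 (log2 fold change -0.30, SE 0.26, adjusted p = 0.649, exact permutation p = 0.357), and its 2.72-fold span over the libraries was the narrowest of the members. Without female 4 its log2 fold change was -0.12, without female 5 -0.18 and without male 3 -0.19, and the difference in means, -1.66 FPKM with all libraries, ranged from -2.52 without female 3 to -0.748 without female 4. The ratio of *C3* to *Cfi* within a library was 1.93 ± 1.24 in males and 0.838 ± 0.205 in females (exact permutation p = 0.0397). It exceeded 2 in males 4 and 5 alone.

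**Figure D2:**
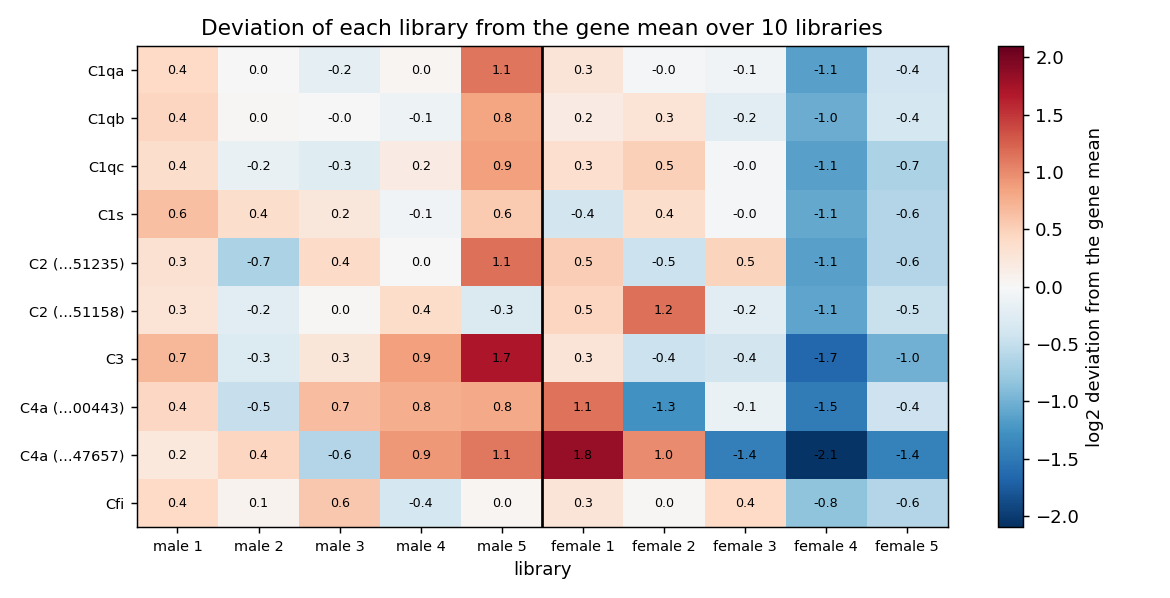
Deviation of each library from the gene's mean over the 10 libraries, in log2(FPKM + 0.1), for the 10 tested rows, with males left and females right of the line. Female 4 was lowest in all 10 rows and male 5 highest in 5, and the *C4a* rows were the highest of the rows in female 1 and lay on opposite sides of 0 in female 2.

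Over the rows, the median deviation from the gene mean was -1.14 in female 4, -0.61 in female 5 and 0.84 in male 5 on the log2 scale, and between -0.11 and 0.42 in the other 7 libraries. Female 5 was the second lowest in 7 of the 10 rows. Male 5 was the highest in 5 of them, as it was for 14.3% of all genes tested and for 13 of 16 macrophage markers, 2 of 8 fibroblast markers, 4 of 9 lymphocyte markers and 4 of 10 tubule injury genes. Female 4 was the lowest library for 16.9% of all genes tested, compared with 10 of 10 member rows. It was also the lowest for 15 of 16 macrophage markers, 7 of 8 fibroblast markers, 8 of 9 lymphocyte markers and 9 of 10 tubule injury genes. Its summed cortical nephron markers were the highest of all, at 3913 FPKM, with 2355 to 3696 FPKM in the other 9 libraries. The largest parts of that sum were *Slc34a1* (1658 FPKM) and *Umod* (1438 FPKM). By counts, female 4 was the highest library for only 1 of the 8 nephron markers.

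Leukocyte and stromal transcripts moved in the same direction as the members. The 16 macrophage markers summed to 737 to 1488 FPKM in the male and 454 to 980 FPKM in the female libraries, 14 of 16 had log2 fold changes below 0 and none passed the adjusted threshold (limma, 4 at an unadjusted p under 0.05), with *Lyz2*, lysozyme, at 618 ± 226 and 454 ± 138 FPKM and *Fcer1g*, an Fc receptor subunit, at 62.4 ± 26.0 and 53.3 ± 29.7. All 9 lymphocyte markers were below 0 without passing (limma). An unadjusted p under 0.05 was given by 2 of them, *Cd4* (log2 fold change -0.56, adjusted p = 0.213) and the B cell gene *Cd79a* (-1.30, adjusted p = 0.290, named after its value was seen), while *Cd3g* had -0.73 (adjusted p = 0.506) and -0.30 without female 4. The summed level of the 9 markers was 36.6 to 72.2 FPKM in the male libraries and 16.9 to 60.1 in the female ones. The neutrophil markers *Mpo* and *Ltf* had at most 3 reads in any library, and the 8 neutrophil markers summed to between 1.38 and 14.7 FPKM in male libraries and between 1.17 and 4.74 in female ones (*S100a8* -1.75, adjusted p = 0.310, *S100a9* -0.79, adjusted p = 0.682, and -1.09 and -0.29 without male 5).

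All 8 fibroblast markers were below 0, with 6 at an unadjusted p under 0.05 (limma, 8.07% of all genes tested). The ranges of the sexes did not overlap in 3 of the 8 (2.6% of all genes tested). The collagen *Col3a1* passed (81.8 ± 13.1 and 39.5 ± 14.9 FPKM, log2 fold change -1.14, limma adjusted p = 0.0477, past the threshold in 8 of 20 alternatives), and *Dcn* did not (-0.80, adjusted p = 0.267, and -0.49 without female 4). The 8 fibroblast markers summed to 265 to 352 FPKM in male and 86.9 to 251 in female libraries. Of the tubule injury genes, 9 of 10 were below 0 and *Sox9*, a regeneration factor, passed (15.5 ± 7.16 and 6.18 ± 1.83 FPKM, log2 fold change -1.27, adjusted p = 0.0359, past the threshold in 10 of 20), while *Spp1*, osteopontin, stood at 4867 ± 1442 and 3185 ± 1771 FPKM (adjusted p = 0.435, log2 fold change -0.81, and -0.41 without female 4) and *Cd24* at 292 ± 32.5 and 286 ± 117 (adjusted p = 0.866). The part of these cells in the complement values was not tested. Cortical nephron markers mostly went the other way, with 7 of 8 above 0 (median 0.30) and *Slc34a1* below. An unadjusted p under 0.05 was reached by 3 of the 8, all higher in females, and none passed the adjusted threshold (limma). Transcripts of liver type went both ways, with *Apoh* lower in females (3.82 ± 1.39 and 0.615 ± 0.393 FPKM, limma adjusted p = 0.0109). *Ttr* was listed at 0 in all males and at 0.643 ± 0.396 FPKM in females (limma adjusted p = 0.0142), on 1 to 12 reads per female library. Its log2 fold change was 2.64, with 0.68 at pseudocount 1 and 5.63 at pseudocount 0.01. Neither *Tf* (log2 fold change -1.29, limma adjusted p = 0.0769) nor *Serpinc1* (0.41, adjusted p = 0.464, and 0.21 without male 5) was past the threshold. *Tf* passed with limma-voom (adjusted p = 0.0467).

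The members' levels followed these transcripts to unequal degrees. Each of the 10 rows was compared over the 10 libraries with the mean log2(FPKM + 0.1) of the macrophage markers and of the tubule injury genes. These were 20 relations in all, tested by permutation of libraries. The macrophage and injury means shared their extremes, highest in male 5 (4.47 and 5.31) and lowest in female 4 (2.92 and 3.52). The relation of these means to each other was not tested. *C1qb* ran closest to the macrophage markers (r = 0.989, rho = 0.976, adjusted permutation p = 0.00020 and 0.00040, n = 10 libraries). Its r was 0.964 without female 4 and male 5, the libraries farthest from the median, 0.990 within males and 0.989 within females, where that of *C1qc* was 0.991. *C1qa* (r = 0.947, rho = 0.782), *C1qc* (r = 0.923, rho = 0.867) and *C1s* (r = 0.864, rho = 0.855) followed, each with adjusted permutation p of at most 0.0259 for both measures, and their r was 0.752, 0.772 and 0.750 without those 2 libraries.

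*C3* followed the macrophage markers less steadily (r = 0.833, rho = 0.624, adjusted permutation p = 0.00860 and 0.0934), with r = 0.689 within males, 0.905 within females and 0.428 without female 4 and male 5. Against the injury genes its r was 0.895 and its rho 0.806 (adjusted permutation p = 0.00120 and 0.0216), and r was 0.869 without females 4 and 5, which are the farthest on that measure, 0.932 within males and 0.928 within females. The C1q genes also rose with the injury genes (*C1qa* r = 0.883, *C1qb* 0.893, *C1qc* 0.909), each with an adjusted permutation p of at most 0.0285 for r and for rho. Within males r was 0.742, 0.562 and 0.817 for *C1qa*, *C1qb* and *C1qc*, and within females 0.975, 0.986 and 0.971. *C1s* had r = 0.812 and rho = 0.564 with the injury genes (adjusted permutation p = 0.00953 and 0.122), with r = -0.051 within males, 0.857 within females and 0.231 without females 4 and 5. The difference between 2 such correlations was not tested.

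**Figure D3:**
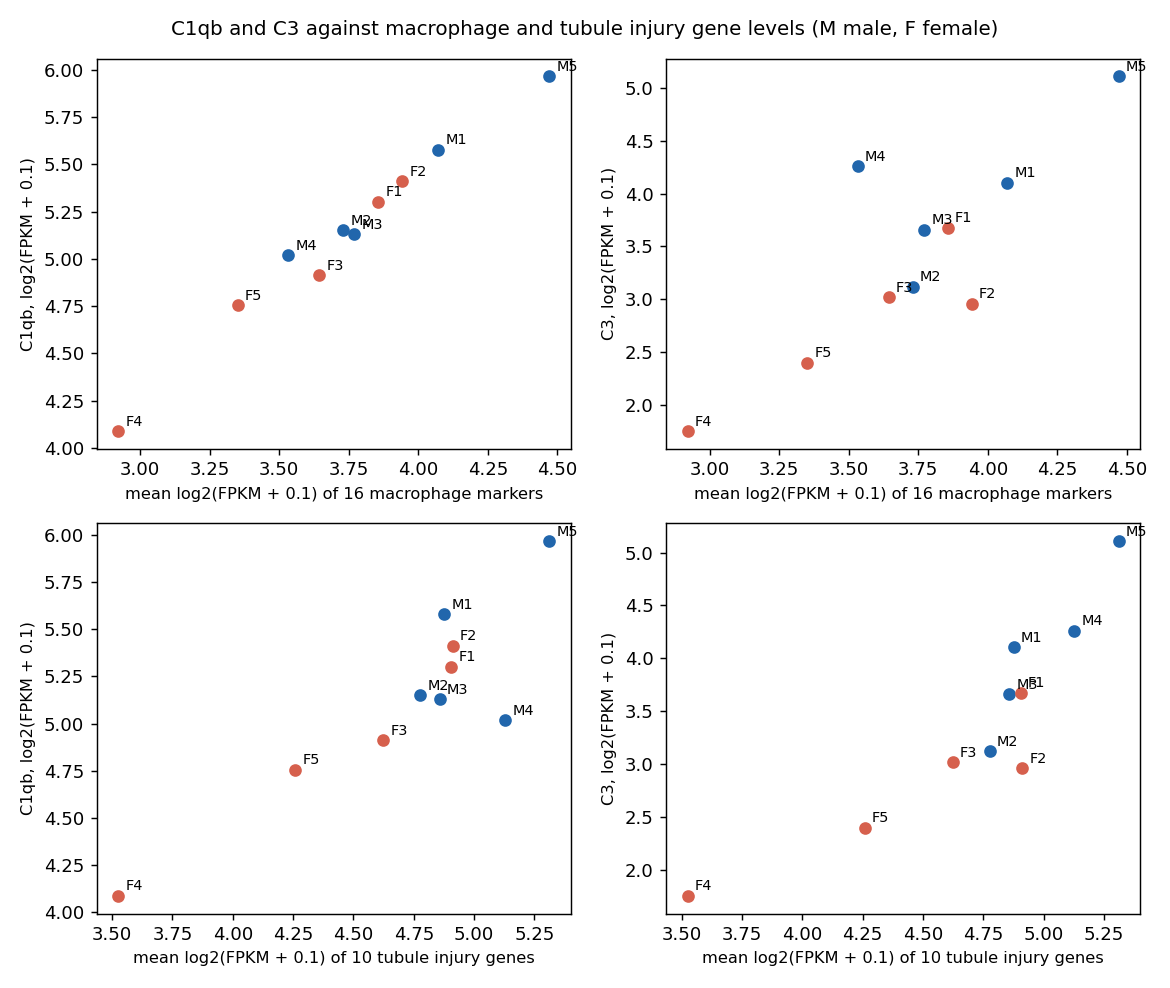
*C1qb* (left) and *C3* (right), in log2(FPKM + 0.1), against the mean log2(FPKM + 0.1) of 16 macrophage markers (top) and 10 tubule injury genes (bottom), one point per library with males in blue and females in red. *C1qb* lay close to a line on the macrophage mean (r = 0.989), whereas *C3* scattered more there (r = 0.833) than on the injury mean (r = 0.895).

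For the convertase genes and the regulator, the main *C4a* row had r = 0.546 with the macrophage and 0.697 with the injury mean, and the main *C2* row 0.782 and 0.744, and neither passed in rho (adjusted permutation p of 0.0919 to 0.202). Without female 4 and male 5 the macrophage r was 0.055 for *C4a* and 0.353 for *C2*, and without females 4 and 5 the injury r was 0.425 and 0.424. The smaller *C4a* row had r = 0.705 and 0.809 (rho = 0.867 for injury, adjusted permutation p = 0.0115) and the second *C2* row 0.512 and 0.671, the last of which was 0.023 without females 4 and 5. *Cfi* had r = 0.674 with the macrophage mean and 0.627 with the injury mean, and the latter turned to -0.584 without females 4 and 5.

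Between the members, 23 of 45 pairs of rows passed in r and 7 in both r and rho (adjusted permutation p at most 0.05 over 45 pairs). The closest pairs were those among the C1q chains (r = 0.954, 0.937 and 0.919) and *C1qa* with *C3* (r = 0.912, rho = 0.879, and 0.708 without female 4 and male 5). *C4a* paired with *C2* (r = 0.826, rho = 0.842) and with *C3* (r = 0.814, rho = 0.842), and these held at 0.729 and 0.745 without females 2 and 4. *C4a* and *C1s* did not follow each other (r = 0.357, rho = 0.164). The libraries are shared by all pairs, so the relations are not independent.

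Among 11996 genes that had a symbol and averaged 1 FPKM or more, those most like each member over the 10 libraries are given by Pearson r as a description. They were *Anxa2* (0.975) and *RT1-M3-1* (0.964) for *C1qa*, *Slpi* (0.986), *Arhgap30* (0.984) and *Chi3l1* (0.976) for *C1qb*, and *Hk2* (0.982), *Dnase2* (0.978) and *Clec4a1* (0.972) for *C1qc*. For *C1s* they were *Cyp1b1* (0.984), *Nol3* (0.981) and *Gucy1b3* (0.979), and for *C3* the cholesterol exporter *Abca1* (0.973), the collagen chaperone *Serpinh1* (0.973) and *Dok1* (0.971). The main *C4a* row was nearest to *Eif2ak4* (0.954), *Grpel2* (0.932) and *Card14* (0.931), and the smaller one to *Cd14* (0.964), *Trim16* (0.954) and *Trim26* (0.950). The main *C2* row was nearest to *Rgag4* (0.975), *Parp10* (0.954) and *Tubb2b* (0.951), the second one to *Nav1* (0.959), *Cdh3* (0.954) and *Gatad2b* (0.951), and *Cfi* to *Itpr3* (0.946), *Ints10* (0.936) and *Tnfrsf11a* (0.934). After each sex was centred on its own mean, 17 of the 30 neighbours remained among the nearest 3. Other members stood among the nearest 100 genes of *C1qa* (*C1qb*, *C1qc* and *C3*), *C1qb*, *C1qc*, *C3* (*C1qa*) and the main rows of *C2* and *C4a*. None stood among those of *C1s* or *Cfi*. Of the macrophage markers, 4, 5 and 4 were among the nearest 100 of *C1qa*, *C1qb* and *C1qc*, and 0 among those of *C1s*. Each of these genes had 1 fibroblast marker there.

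The rest of the pathway, 46 other complement genes in lists of initiators, terminal components, regulators and receptors, had 45 rows in the table (*C5* did not match by symbol), of which 38 were tested. One gene was lower and 1 higher in females past both thresholds (1.32% of all genes tested in either direction), 29 of 38 had log2 fold changes below 0 with a median of -0.37 (51.2% of all genes), and 11 were lower at an unadjusted p under 0.05 (8.07% of all genes). *Mbl1*, a mannose-binding lectin that starts the lectin pathway, had 3.86, 9.62, 7.04, 10.8 and 7.22 FPKM in the males and 1.0001, 0.894, 1.19, 2.13 and 1.21 in the females. The ranges did not overlap, as for 2.6% of all genes tested in that direction (log2 fold change -2.47, SE 0.29, limma adjusted p = 0.00103, exact permutation p = 0.00794, the smallest that 5 against 5 allows).

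*Cd55*, which encodes decay-accelerating factor, an inhibitor of the C3 convertase on the cell surface, was the complement gene that was higher in females. It had 3.96, 3.27, 2.87, 2.81 and 3.11 FPKM in the males and 5.68, 9.21, 5.19, 6.09 and 6.91 in the females, without overlap (log2 fold change 1.005, SE 0.16, adjusted p = 0.00676, exact permutation p = 0.00794). Both genes passed the adjusted threshold in each of the 20 alternatives, and the log2 fold change of *Cd55* lay under 1 in 8 of them. Female 4, the lowest library for the members, was the highest female for *Mbl1* and the third highest for *Cd55*.

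**Figure D4:**
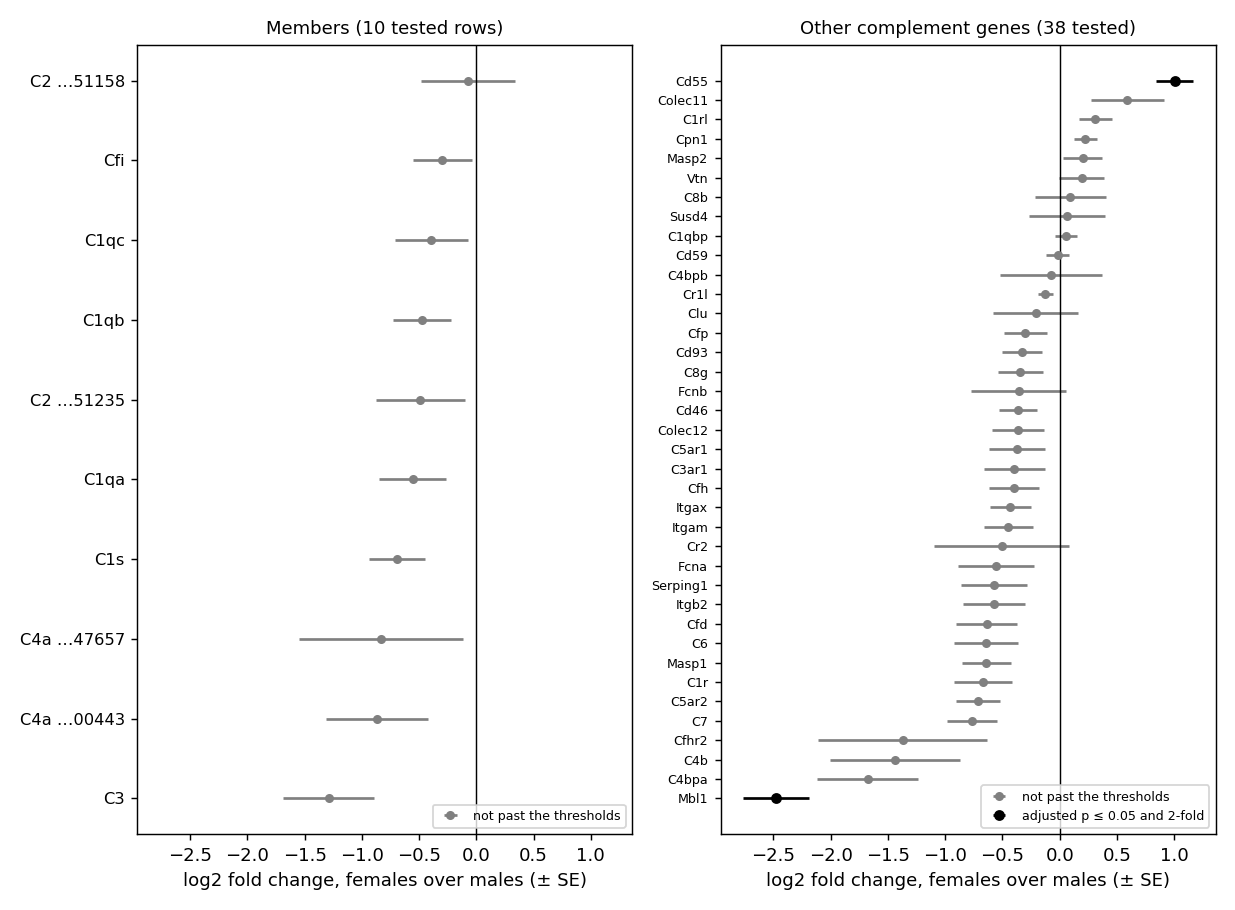
Log2 fold change of females over males with its SE for the 10 tested member rows (left) and 38 other complement genes (right), with black points for an adjusted p of at most 0.05 and at least a 2-fold change. No member row was black, where 1.32% of all genes tested passed both thresholds. *Mbl1* (-2.47) and *Cd55* (1.005) were the black points at either end of the right panel.

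Of 12 tested initiators, 9 were below 0, among them *Cfp*, properdin, which stabilises the alternative convertase (14.2 ± 3.08 and 11.6 ± 2.93 FPKM, adjusted p = 0.491). *Mbl2* and *Colec10* had at most 3 reads in any library. Of 4 tested terminal components, *C7*, which joins the membrane attack complex, was the most abundant (217 ± 37.9 and 132 ± 41.8 FPKM, log2 fold change -0.76, adjusted p = 0.104, exact permutation p = 0.0238), *C6* had 2.499 ± 0.795 and 1.58 ± 0.551 (adjusted p = 0.293) and *C8g* 5.98 ± 1.39 and 4.66 ± 0.974 (adjusted p = 0.441). *C8a* had at most 3 reads in any library.

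Of 13 tested regulators, 9 were below 0 and 4 above. *Serping1*, the C1 inhibitor, had 99.8 ± 24.8 and 70.9 ± 31.2 FPKM (adjusted p = 0.371), *Cd59*, which blocks the membrane attack complex, 156 ± 17.3 and 155 ± 15.2 (adjusted p = 0.963), and *Clu*, clusterin, 595 ± 81.2 and 593 ± 344 (adjusted p = 0.843), with 208 FPKM in female 4 and 1106 FPKM in female 2. *C4bpa*, a cofactor of factor I, lay between 0 and 1.29 FPKM without overlap of the sexes (log2 fold change -1.68, SE 0.44, adjusted p = 0.0850) and rested on 0 to 65 reads. Its value depended on the pseudocount, with -0.49 at pseudocount 1, -2.73 at pseudocount 0.01 and -2.81 with limma-voom. *Cpn2* had at most 3 reads in any library.

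Of 9 tested receptors, 8 were below 0 and none passed (limma, 2 at an unadjusted p under 0.05). *C5ar2*, a receptor for the C5a fragment, had 7.72 ± 1.83 and 4.63 ± 0.939 FPKM (log2 fold change -0.72, SE 0.19, adjusted p = 0.0869, exact permutation p = 0.0159), *Itgb2*, the shared chain of complement receptors 3 and 4, 7.32 ± 1.44 and 5.20 ± 2.20 (adjusted p = 0.345), and *C1qbp* 93.0 ± 2.53 and 97.4 ± 12.9 (adjusted p = 0.842).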

How the data were processed

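Poly(A) RNA of snap-frozen renal cortex was sequenced, 1 library per rat. Reads had been mapped with HISAT2 2.0.5 to the Ensembl assembly Rnor_6.0 by the sequencing provider, and the submitters' processing notes also name fastp, StringTie 1.3.3b and featureCounts 1.5.0-p3, with the strand setting of counting not given in the sources used here. The deposited values are FPKM per gene made by the authors' provider. In all libraries 100% of the values were whole multiples of what 1 read is worth (tolerance 0.1 read), which gave the read numbers quoted.

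Samples were grouped by the sex in the labels. Genes that averaged 0.1 FPKM or more over the libraries were tested on log2(FPKM + 0.1), a scale that understates changes of low genes, with limma 3.58.1 (R 4.3.3, trended empirical Bayes, all 10 libraries, no covariate) and Benjamini-Hochberg adjustment over all genes tested. Thresholds were an adjusted p of 0.05 and an absolute log2 fold change of 1. The study itself used DESeq2, which needs counts and was not used here. Single genes, sums and ratios were compared by exact two-sided permutation of FPKM over the 10 libraries, and correlations by 100000 permutations (Python 3.11.15, scipy 1.17.1). The limma fit and the permutation test were tested on simulated data. A low value rests on few reads, and the p-values measure the spread between single rats.

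Named genes were all members, genes of the other complement lists that passed or had the 3 highest means of a list or the 3 largest fold changes over the lists, marker genes that passed or had the 2 highest means of a list, and the 3 nearest neighbours of each row. Some genes that this rule would name are not reported here. The members, lists and tests were chosen with earlier results of these data known. Alternatives were quantile normalization, median-ratio scaling, the pseudocounts 0.01 and 1, a minimum mean of 1 FPKM or none, empirical Bayes without a trend, a replicate block, limma-voom run on read numbers, and the omission of each library in turn. Added after the data were seen were a scaling by total reads, sums, ratios and pairs of members, and the promoter motifs.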

Additional observations from a re-analysis of the deposited data

How the results depend on the processing

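No member row passed the adjusted threshold in any of the 20 alternatives. At pseudocount 1, 65 genes were called higher and 72 lower in females, compared with 109 and 123. Of the other complement genes, 1 was called at pseudocount 1, with scaling by total reads (added after the data were seen) and with limma-voom on recovered reads, and 1 to 2 without 1 library, in place of 2, since *Cd55* fell under the 2-fold threshold. The second *C2* row had a log2 fold change of 0.017 at pseudocount 1 and 0.047 with quantile normalization, and -0.37 to 0.19 without 1 library, and its difference in means was -0.071 on the log2 scale. *C1qbp* had a log2 fold change of -0.019 with quantile normalization, -0.020 with scaling by total reads and -0.021 with limma-voom. Reversals without 1 library gave ranges of -0.068 to 0.033 (*Cd59*), -0.49 to 0.11 (*Clu*), -0.31 to 0.056 (*Cd24*), -0.16 to 0.0070 (*Stat3*) and -0.17 to 0.11 (*Slc34a1*) in log2 fold change, and of -0.062 to 0.082 (second *C2* row) and -0.70 to 0.126 (smaller *C4a* row) in FPKM difference. The r of *Cfi* with the injury genes was -0.58 without the 2 farthest libraries.

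Libraries with the same number did not pair, with correlations of their deviations of -0.10 to 0.07 over the 5 pairs. With the replicate block 89 genes were called higher and 87 lower, and no member row, while *C5ar2* passed the adjusted p (0.0250) and *Ttr* (0.0579), *Col3a1* (0.0849) and *Sox9* (0.161) did not. Low members, above all the second *C2* row with 3 reads in female 4, limit what the depth can show. Scaling by total reads moved the median of all genes from -0.01 to -0.08 and that of the members from -0.52 to -0.59.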
